A study of Mus musculus with 6 samples.

Results

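The genes described here are 9 endothelial controls of clotting and clot removal, Vwf, F8, F3, Thbd, Procr, Tfpi, Plat, Plau and Plaur, taken by symbol from the 22026 gene rows of each sample, and all 9 were present. Endothelial cells (ECs) keep blood fluid by presenting anticoagulant proteins at their surface, and they store von Willebrand factor for release when a vessel is injured. Tissue factor, encoded by F3, starts clotting when blood meets it and is normally kept off the vessel lining. Clots are dissolved by plasmin, which is cut from circulating plasminogen by the activators tPA (Plat) and uPA (Plau), and the uPA receptor (Plaur) concentrates uPA at the cell surface.

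RNA was sequenced from choroid ECs, the lining of the capillary bed that serves the outer retina. The 129/B6 mice were 5 days old (P5, 3 isolations) or 30 days old (P30, 3 isolations), with no experimental treatment or transgene named at either age. Each isolation pooled the dissected RPE/choroid of 7 animals, so an isolation is a pool and not an animal. Cells were sorted on VE-Cadherin after the antibody had been given to the living mouse. By the study's methods, P5 mice were anaesthetized by hypothermia and were given less antibody than P30 mice. Effects of these steps cannot be told apart from age. Levels are FPKM, a fragment count scaled for transcript length and sequencing depth, so genes of different length can be compared. The number of reads behind a value is not known, so no counting error is given. Differences were fitted with limma on log2(FPKM + 1), which understates the change of low genes, over the 12481 genes whose mean reached 5 FPKM at either age. A gene was called at a Benjamini-Hochberg adjusted p under 0.01 together with at least a 2-fold difference in mean FPKM + 1.

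The summed FPKM of a sample lay between 1432700 and 1485332 at P5 and between 1571227 and 1734639 at P30. The endothelial genes Pecam1, Cdh5 and Kdr were between 1243 and 3858 FPKM in all 6 isolations. Cdh5, the gene of VE-Cadherin, was lower in every P30 isolation than in any P5 isolation. Its means were 2971 FPKM at P5 and 1885 at P30, under the 2-fold limit (log2 fold change -0.66, limma adjusted p = 0.00205). The lowest value among the 10 genes of the endothelial list was 355.71 FPKM, for Erg in P30 isolation 3. Of those genes 2, Plvap and Flt1, were called higher at P30 and 0 higher at P5. Markers of other cells were also present and were mostly higher at P30. Summed over its list, RPE markers ranged over 73.0 to 156 FPKM at P5 and 507 to 3816 at P30, with 5 of 7 tested genes called higher at P30. Pericyte markers lay between 476 and 1751 at P5 and between 1907 and 6443 at P30 (1 of 8 called), and smooth muscle markers between 88.7 and 181 and between 313 and 1088 (2 of 5 called). Fibroblast markers lay between 742 and 1212 and between 1815 and 4557 (1 of 7 called), photoreceptor markers between 2.21 and 11.3 and between 41.0 and 382 (3 of 6 called), and Schwann cell markers between 12.9 and 53.0 and between 62.3 and 316 (1 of 6 called). Macrophage and leukocyte markers went the other way, between 839 and 1099 at P5 and between 333 and 909 at P30, with 3 of 8 called higher at P5 and 0 higher at P30. In bulk RNA, fewer cells of a type and less RNA per cell cannot be told apart.

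Of the 9 genes, Plaur, Thbd and Plat were called higher at P30 and Plau was called higher at P5, while Vwf, F8, F3, Procr and Tfpi were not called. That is 3 genes higher at P30, against 5.89% of all genes tested, and 1 higher at P5, against 5.82%. Without the 2-fold limit the same 4 genes passed an adjusted p of 0.01, against 19.2% of all genes. The isolations of the ages did not overlap in 5 of the 9, which is the share seen over all genes tested (55.1%) and is therefore not particular to these genes. The 9 genes had a median log2 fold change of 0.40, and all genes tested had one of -0.10. Dividing each sample by its summed FPKM moved the median of all genes to -0.26 and the share of calls that were higher at P30 from 50.3% to 37.1%. No member changed sign under that scaling or under quantile normalization.

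**Figure D1:**
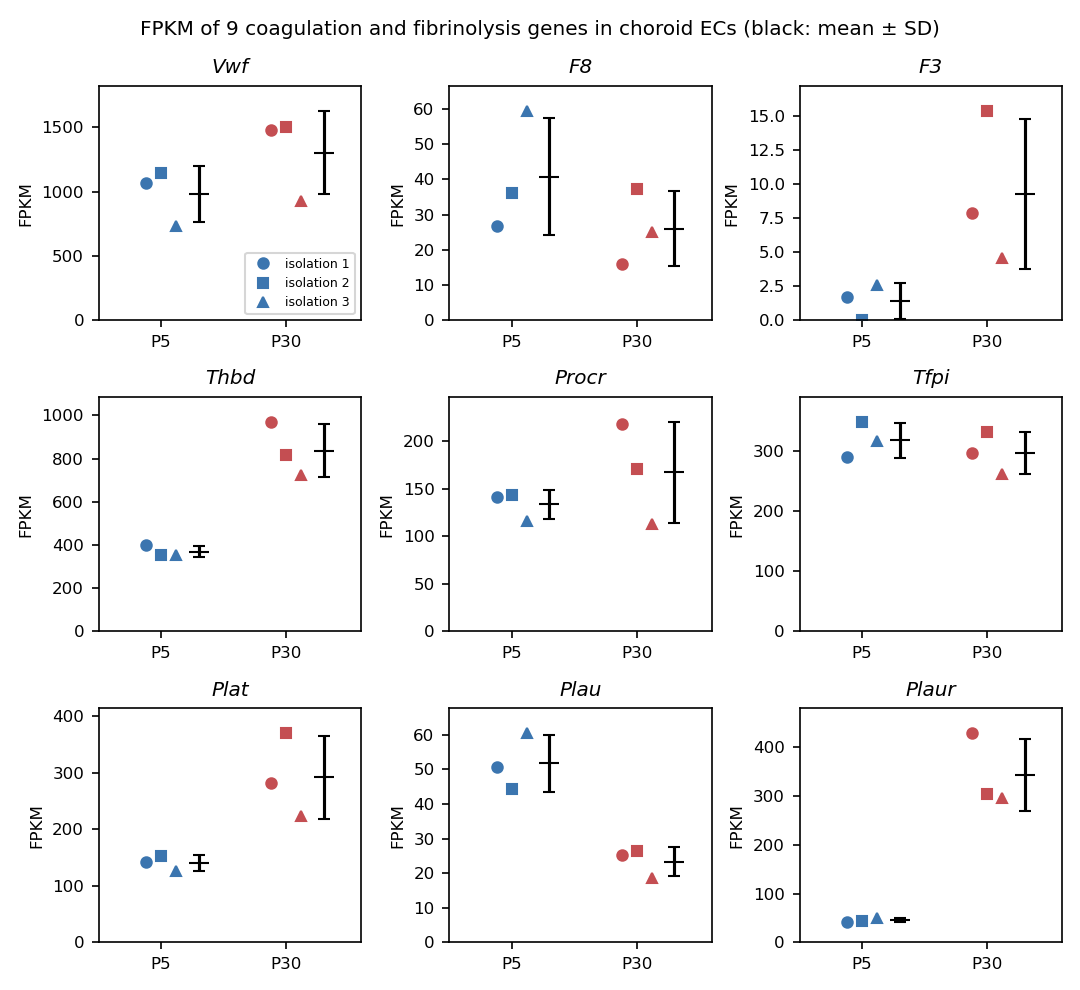
FPKM (vertical axes, each from 0) of the 9 genes in the 3 P5 isolations (blue) and 3 P30 isolations (red), with symbols for the isolation number and black bars for the mean ± SD. Plaur, Thbd, Plat and F3 lie higher in every P30 isolation than in any P5 isolation, Plau lies lower, and the other 4 genes overlap.

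**Figure D2:**
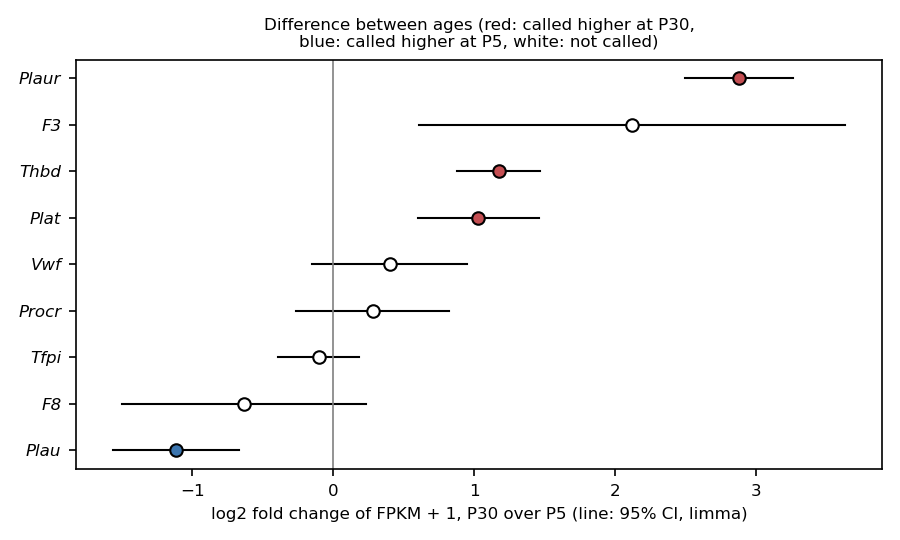
Log2 fold change of FPKM + 1, P30 over P5 (horizontal axis), for each gene, with the 95% confidence interval from limma as a line and filled points for genes called. Plaur stands at 2.87 and Plau at -1.12, and the intervals of Vwf, Procr, Tfpi and F8 include 0.

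The sequence upstream of a gene is where many transcription factors act, and it is shown here for members that share a motif. RefSeq windows of the GRCm38.p6 build, whose coordinates are not those of mm9, matched 5 of the 9 symbols, F3, F8, Plaur, Procr and Tfpi. Vwf and the called genes Thbd, Plat and Plau had no window. The AP-1 motif TGANTCA reads the same on both strands. It occurred in the 250 bases before the start of 3 of the 5 matched genes and in 6.75% of 32851 windows of that length. Members were counted by gene and the background by window, and Tfpi had more than 1 window, none with a match. The 3 genes with a match are shown 5′ to 3′ on the coding strand with AP-1 matches in capitals. AP-1 was picked for display after all 7 motifs had been searched. The Plaur window (chr7:24462233-24462482, plus strand) holds 1 match, whose first base is at -69 from the start, the Procr window (chr2:155750967-155751216, plus strand) 1 at -154, and the F3 window (chr3:121723287-121723536, plus strand) 2 at -146 and -135.
Plaur: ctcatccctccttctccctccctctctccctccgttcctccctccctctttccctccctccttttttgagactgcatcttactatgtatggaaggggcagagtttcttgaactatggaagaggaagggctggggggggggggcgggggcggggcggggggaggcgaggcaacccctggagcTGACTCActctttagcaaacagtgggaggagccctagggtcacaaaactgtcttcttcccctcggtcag
Procr: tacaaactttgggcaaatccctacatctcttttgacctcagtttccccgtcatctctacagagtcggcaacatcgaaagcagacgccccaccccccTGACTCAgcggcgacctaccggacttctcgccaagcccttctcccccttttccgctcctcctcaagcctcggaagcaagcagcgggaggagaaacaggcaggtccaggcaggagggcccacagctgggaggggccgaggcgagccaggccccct
F3: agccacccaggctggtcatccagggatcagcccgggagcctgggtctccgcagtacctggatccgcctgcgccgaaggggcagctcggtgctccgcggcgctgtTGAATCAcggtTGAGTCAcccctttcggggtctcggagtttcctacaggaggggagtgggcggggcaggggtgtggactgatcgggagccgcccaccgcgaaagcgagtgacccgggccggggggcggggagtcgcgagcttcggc
The SP1 motif GGGCGG was found on either strand 3 times in the Plaur window, where neighbouring matches at -105 and -100 overlap by a base, 3 times in the F3 window and 0 times in the Procr window, and in 32.7% of all windows. The ETS core GGAA was present in all 3, as it was in 93.4% of windows. The KLF-type motif CACCC occurred 3 times in F3, once in Procr and in 52% of windows, GATA in none of the 3 and in 53.6%, the E-box CANNTG in Procr and in 66.2%, and the TATA box TATAAA in none of the 3 and in 12.4%. Of the 3 genes shown, Plaur was called higher at P30 and Procr and F3 were not called. A match describes these letters and does not show that a factor binds there.

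Among the genes that promote clotting, Vwf was the highest of the 9. Vwf (chromosome 6, 125496792 to 125636697 of mm9) encodes the large protein that tethers platelets and carries factor VIII. It measured 1065, 1141 and 735 FPKM in P5 isolations 1, 2 and 3 and 1474, 1499 and 927 in P30 isolations 1, 2 and 3. The third isolation was the lowest at each age, and P30 isolation 3 fell within the P5 range. The log2 fold change was 0.40 (95% confidence interval -0.15 to 0.95, limma adjusted p = 0.213), an interval that holds 0 and reaches almost to 2-fold. Platelets and megakaryocytes also hold VWF, and of the 8 markers of that list 1 of 3 tested genes, Pf4, was called, as higher at P5. Its sum ranged over 424 to 483 FPKM at P5 and 45.1 to 196 at P30, most of it Pf4. The megakaryocyte gene Itga2b reached at most 5.61 FPKM, and Gp9 and Gp5 were listed at 0 in every P5 isolation and at up to 5 and 5.24 FPKM at P30. Gp1bb, a subunit of the platelet receptor for VWF, went the other way from Pf4, with 6.94, 4.75 and 2.02 FPKM at P5 and 43.4, 13.7 and 8.66 at P30, and was not called (log2 fold change 1.84, limma adjusted p = 0.0491). The part of platelets in the level of Vwf was not tested.

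F8 (chromosome X, 72418054 to 72627954) encodes the cofactor that VWF carries and that speeds the activation of factor X. Its values were 26.9, 36.2 and 59.4 FPKM at P5 and 15.9, 37.2 and 25 at P30. The ages overlapped, and the SD was 41.0% of the mean at P5 and 41.1% at P30. The log2 fold change was -0.63 (95% confidence interval -1.5 to 0.23, limma adjusted p = 0.209). The annotated F8 gene overlaps Fundc2 on the opposite strand over 217 bases and also holds the gene models Gm6039 and Gm8522, so part of its reads could be shared with them. Whether the libraries kept strand is not given in the sources used here.

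F3 (chromosome 3, 121426455 to 121437970) was the lowest of the 9 at each age. Tissue factor RNA was listed at 1.74, 0 and 2.61 FPKM in the P5 isolations and at 7.89, 15.4 and 4.58 in the P30 isolations. Every P30 value was above every P5 value, but the gene was tested only because its P30 mean passed the minimum of 5. The log2 fold change of 2.12 (an SE of 0.65, limma adjusted p = 0.0365) did not pass the limit. Among the P30 isolations F3 took the same order as the smooth muscle marker sum, which was 434, 1088 and 313 FPKM. Vwf, Tfpi, Plat and Plau took that order too, so it was not particular to F3. The part of smooth muscle cells in the level of F3 was not tested.

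The anticoagulant genes differed among themselves. Thbd (chromosome 2, 148230207 to 148233924) encodes thrombomodulin, the receptor that turns thrombin from a clotting enzyme into an activator of protein C. It rose from 399, 352 and 355 FPKM in the P5 isolations to 969, 816 and 725 in the P30 isolations. The lowest P30 value was well above the highest P5 value, and the mean was 2.27 times higher (log2 fold change 1.17 with an SE of 0.13, limma adjusted p = 6.9e-04). The call held with each isolation left out. With quantile normalization the call was lost through the 2-fold limit, which was set on mean FPKM + 1 and not on the limma coefficient (log2 fold change 0.97, limma adjusted p = 8.9e-04). Thbd shared its order of P30 isolations with Procr, Plaur and the RPE, photoreceptor and Schwann cell marker sums. Its highest P30 value was 1.34 times the lowest, and that of the RPE sum 7.53 times. The part of those cells in the level of Thbd was not tested.

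Procr (chromosome 2, 155576853 to 155581207) encodes the endothelial protein C receptor, which presents protein C to the thrombin and thrombomodulin pair. It had 141, 143 and 116 FPKM at P5 and 218, 171 and 112 at P30. One P30 isolation was below all P5 isolations, and 2 were above them. The log2 fold change was 0.28 (95% confidence interval -0.27 to 0.82, limma adjusted p = 0.367). Thrombomodulin RNA was thus called higher at P30 and that of its partner receptor was not, but the difference between their changes was not itself tested.

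Tfpi (chromosome 2, 84273012 to 84316932) encodes tissue factor pathway inhibitor, which blocks the complex of tissue factor and factor VIIa. It varied least of the 9 genes across ages, with 291, 349 and 317 FPKM at P5 and 298, 333 and 262 at P30. The log2 fold change was -0.10 (95% confidence interval -0.39 to 0.18, limma adjusted p = 0.523), an interval that leaves out a 2-fold change in either direction. At each age Tfpi RNA was far above that of F3.

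The fibrinolysis genes moved in both directions. Plat (chromosome 8, 23868216 to 23893319) encodes tPA, the activator that ECs release into blood and that works best on fibrin. It measured 142, 153 and 126 FPKM at P5 and 282, 370 and 224 at P30. The ages did not overlap, and the mean was 2.09 times higher (log2 fold change 1.03 with an SE of 0.18, limma adjusted p = 0.00511). The call stands near both limits and was lost without P5 isolation 1, 2 or 3 (adjusted p = 0.0204, 0.0187 and 0.0282), without P30 isolation 1 (adjusted p = 0.0133) and, through the 2-fold limit, without P30 isolation 2 (log2 fold change 0.84, limma adjusted p = 0.00753). Scaling each sample to its summed FPKM gave 0.86 and ended the call as well. P30 isolation 2, which had the most Plat, also had the highest pericyte and smooth muscle sums. Plat took the same order of P30 isolations as the smooth muscle sum, which was 434, 1088 and 313 FPKM. The pericyte sum, 1907, 6443 and 3922 FPKM, took another order. The part of those cells in Plat was not tested.

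Plau (chromosome 14, 21655884 to 21662610) encodes uPA, the activator used at cell surfaces and during tissue remodelling. It fell from 50.6, 44.2 and 60.5 FPKM at P5 to 25.1, 26.3 and 18.7 at P30. No P30 isolation reached the lowest P5 isolation (log2 fold change -1.12 with an SE of 0.19, limma adjusted p = 0.00427). The call was lost without P5 isolation 1, 2 or 3 (adjusted p = 0.0204, 0.0156 and 0.0245) and, through the 2-fold limit, without P30 isolation 3 (log2 fold change -0.97, limma adjusted p = 0.00799). Macrophages can also make uPA. Of the most abundant macrophage markers, Csf1r ranged over 169 to 262 FPKM at P5 and 36.6 to 169 at P30, whereas Lyz2 ranged over 134 to 263 and 124 to 380. The 3 genes of that list called higher at P5 were Ptprc, Emr1 and Mrc1. Within P30, Plau was 25.1, 26.3 and 18.7 FPKM in isolations 1, 2 and 3, and the macrophage and leukocyte sum was 909, 333 and 571. The part of these cells in the level of Plau was not tested.

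Plaur (chromosome 7, 25247519 to 25260892) encodes the uPA receptor, a protein held in the membrane by a lipid anchor. It was the member with the largest change, from 42.5, 43.3 and 50.4 FPKM at P5 to 429, 305 and 296 at P30. The P5 isolations were close together and the lowest P30 isolation was far above them. The mean was 7.56 times higher (log2 fold change 2.87 with an SE of 0.16, limma adjusted p = 9.2e-05). Plaur was called under all 15 alternatives run, with log2 fold changes between 2.69 and 2.97. Leukocytes carry the receptor too. Their marker sum was lower in 2 of the P30 isolations than in any P5 isolation, while the means of Lyz2 (204 and 254 FPKM) and Cd14 (61.0 and 86.3) were higher at P30, neither of them called. Plaur took the same order of P30 isolations as Thbd, Procr and the RPE, photoreceptor and Schwann cell sums. Its P30 values spanned 1.45 times and those sums 7.53, 9.32 and 5.06 times. The part of any of these cells in the level of Plaur was not tested.

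Plau and Plaur overlapped in level at P5 and were far apart at P30. Plau RNA was 1.19, 1.02 and 1.20 times that of Plaur in the P5 isolations, on the FPKM scale. In the P30 isolations it was 0.0586, 0.0863 and 0.0630 times. Thbd stood at 229 and 136 times F3 in P5 isolations 1 and 3 and at 123, 53.2 and 158 times in the P30 isolations, with no ratio for P5 isolation 2, where F3 was listed at 0.

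By level, the order at P5 was Vwf, Thbd, Tfpi, Plat, Procr, Plau, Plaur, F8 and F3. Plat overlapped Procr, Plau overlapped Plaur and Plaur overlapped F8 across the 3 isolations, and the other neighbours did not overlap. At P30 the order was Vwf, Thbd, Plaur, Tfpi, Plat, Procr, F8, Plau and F3. There Vwf overlapped Thbd, Plaur overlapped Tfpi, Tfpi overlapped Plat and F8 overlapped Plau. Vwf was higher than 99.3% of all gene rows at P5 and 99.4% at P30. Plaur moved from above 68.8% to above 96.2% of rows, and Plau from above 71% to above 59.5%.

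Over all genes the spread between isolations was wider at P30, with a median SD of log2(FPKM + 1) of 0.13 at P5 and 0.26 at P30. On that scale the SD was also larger at P30 for every member but F3, whose SD was 0.97 at P5 and 0.78 at P30, and F8 was nearly level at 0.56 and 0.59. The members that widened most were Procr, Plat and Plaur. Procr went from an SD of 11.5% of its mean at P5 to 31.6% at P30, Plat from 9.76% to 25.1% and Plaur from 9.53% to 21.7%. P30 isolation 3 was the lowest for every member but F8. The endothelial markers were divided there. Of the 10, 5 were also lowest in P30 isolation 3 among the P30 isolations, namely Pecam1, Cdh5, Tek, Emcn and Erg, while Kdr and Plvap were highest there and the summed list stood at 1.06 times its P30 mean.

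**Figure D3:**
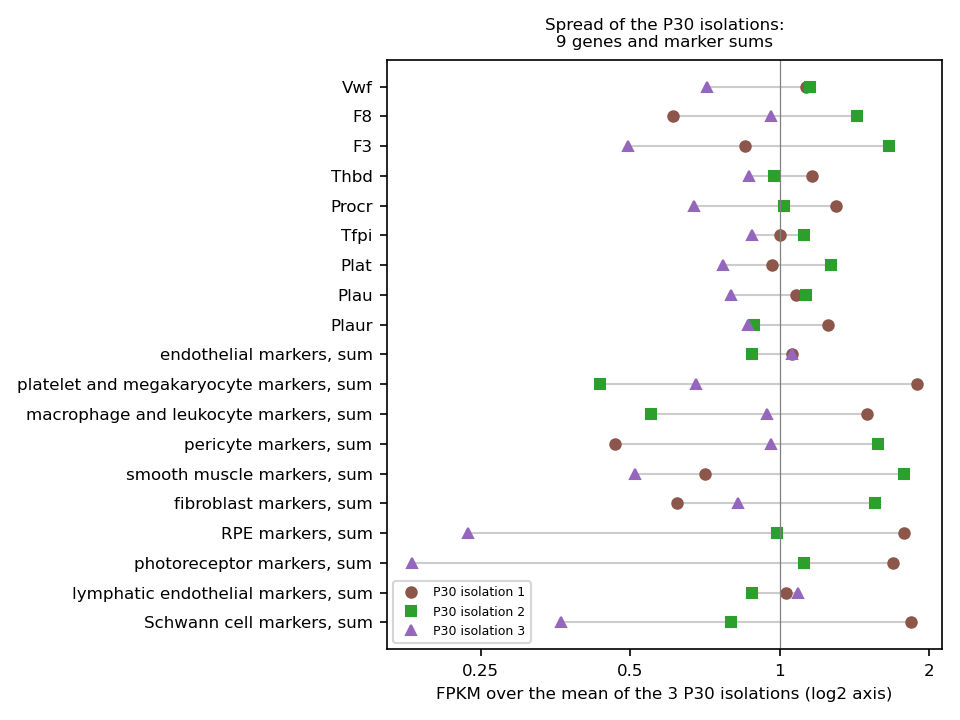
FPKM of each P30 isolation divided by the mean of the 3 (horizontal log2 axis) for the 9 genes and for the summed markers of each cell type. P30 isolation 3 (triangles) is lowest for 8 of the 9 genes, and the RPE and photoreceptor sums range more widely than any of the genes.

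The genes whose pattern was nearest to Plaur and Thbd were found by the root mean square difference of centred log2(FPKM + 1) over the 6 isolations. For Plaur they were Otx2os1 (0.14), Fmo4 (0.16) and Xdh (0.16), the gene of xanthine dehydrogenase. Otx2os1 and Fmo4 had 0 FPKM in every P5 isolation and no more than 7.88 at P30. Their closeness to Plaur therefore depends on the 1 added to FPKM. Xdh had 19.8, 15.6 and 19.2 FPKM at P5 and 177, 157 and 118 at P30. For Thbd they were Tap2 (0.07), a peptide transporter of antigen presentation, Tenc1 (0.07) and Aldoa (0.07), a glycolytic enzyme.

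The wider pathway was covered by 63 other genes of clotting and fibrinolysis, of which 62 matched a row, 17 were listed at 0 in all 6 isolations and 34 were tested. Of these 4 were called higher at P30 and 3 higher at P5, and the others were not called, against 5.89% and 5.82% of all genes tested. Their median log2 fold change was 0.29. In 22 of the 34 the ages did not overlap, against 55.1% of all genes tested.

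Plasma clotting factors were mostly near or at 0. Of 14 genes, 8, fibrinogen chains among them, were listed at 0 throughout and 2 were tested. F13a1, the A chain of the fibrin-linking factor XIII, which tissue macrophages also make, fell from 100.2 ± 11.1 to 17.9 ± 11 FPKM (mean ± SD of 3 isolations, log2 fold change -2.59, limma adjusted p = 0.00298). Its P30 values of 29.7, 7.84 and 16.2 took the same order as the macrophage sum, 909, 333 and 571, and the part of those cells in F13a1 was not tested. F5, the cofactor factor V, was at 13.3 ± 2.28 and 5.58 ± 0.21 and was not called (limma adjusted p = 0.0136). It gained a call as higher at P5 without a trend (limma adjusted p = 0.00409) and with each sample scaled to its summed FPKM (limma adjusted p = 0.00598).

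Of the 11 other anticoagulant genes, 5 were tested and 0 were called in either direction (1 passed an adjusted p of 0.01 in limma, and 2 had an unadjusted p under 0.05). Pros1, which encodes protein S, the cofactor of activated protein C, was the gene that passed, at 274 ± 10.9 and 381 ± 21.6 FPKM (log2 fold change 0.47, limma adjusted p = 0.00665), and it is named after its values were seen. Entpd1, the surface enzyme that removes platelet-activating ADP, was at 666 ± 39.0 and 641 ± 79.9 (log2 fold change -0.06, and 0.03 without P30 isolation 3). Anxa5, which covers clot-promoting phospholipid, was at 890 ± 50.7 and 1015 ± 92.5 (log2 fold change 0.19, and -0.11 with quantile normalization).

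Among partners of VWF and factor VIII, 6 of 10 genes were tested and Mmrn1 was called. Mmrn1, a large protein of platelets and ECs that binds factor V, fell from 137 ± 39.9 to 46.5 ± 8.18 FPKM (log2 fold change -1.52, limma adjusted p = 0.00218). It also belongs to the list of lymphatic endothelial markers (1 of 6 called, Mmrn1 itself). The sum of that list lay between 468 and 681 at P5 and between 567 and 701 at P30. Mmrn2, an EC matrix protein of the same family, was at 846 ± 129 and 1409 ± 131, under the 2-fold limit (log2 fold change 0.74, limma adjusted p = 0.00612). Lman1, part of the export receptor for factors V and VIII, was at 225 ± 10.4 and 194 ± 16.6 and was not called.

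Of the thrombin receptor family, 3 of 4 genes were tested and 0 were called (0 at an adjusted p of 0.01 in limma, 1 at an unadjusted p under 0.05). F2r, the main thrombin receptor of ECs, was at 660 ± 45.5 FPKM at P5 and 587 ± 170 at P30. F2rl3 was at 21.3 ± 6.31 and 4.19 ± 3.69 (log2 fold change -2.54, limma adjusted p = 0.0348). It gained a call as higher at P5 without P30 isolation 3 (log2 fold change -1.58, limma adjusted p = 0.00905).

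In the group of vitamin K and tissue factor support genes, 5 of 6 were tested and Gas6 was called. Gas6, a vitamin K-dependent ligand related to protein S, rose from 331, 282 and 255 FPKM in the P5 isolations to 741, 664 and 666 in the P30 isolations (log2 fold change 1.26 with an SE of 0.12, limma adjusted p = 4.1e-04). It was called under all 15 alternatives. P4hb, protein disulfide isomerase, was at 1063 ± 70.8 and 875 ± 49.3 and was not called.

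Of plasminogen and its inhibitors, 6 of 11 genes were tested, 3 were called higher at P30 and 0 higher at P5. Of the 3, Serping1 and Thbs1 are described here. Serping1, the C1 inhibitor, rose from 58.8 ± 20.8 to 306 ± 131 (log2 fold change 2.31, limma adjusted p = 0.00348). Thbs1, thrombospondin 1, rose from 49.7 ± 6.83 to 162 ± 72.2 (log2 fold change 1.61, limma adjusted p = 0.0046). Both were highest in P30 isolation 2, which also had the highest pericyte, smooth muscle and fibroblast sums, and the part of those cells was not tested. Thbs1 lost its call without P5 isolation 1, 2 or 3 (adjusted p = 0.0187, 0.0235 and 0.0191). It also lost the call without a trend (limma adjusted p = 0.012) and with a block for isolation number (limma adjusted p = 0.0112). Serping1 lost its call without P5 isolation 1 or 2 or P30 isolation 3 (adjusted p = 0.0159, 0.0167 and 0.0109). F13a1 lost its call without P5 isolation 1, 2 or 3 (adjusted p = 0.0151, 0.0164 and 0.0162). Serpine2, an inhibitor of thrombin and uPA, was at 188 ± 55.4 and 407 ± 212 and was not called (limma adjusted p = 0.0819). Plg itself, the plasminogen gene, was listed at 0 in all 6 isolations.

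All 7 genes for plasminogen receptors and clearance were tested, and S100a10 was called. S100a10 and Anxa2 encode the subunits of the complex that binds tPA and plasminogen at the EC surface. S100a10 fell from 813, 1002 and 978 FPKM at P5 to 462, 445 and 389 at P30 (log2 fold change -1.10 with an SE of 0.12, limma adjusted p = 6.9e-04). Anxa2 was at 1431 ± 88.7 and 929 ± 92.9, lower in each P30 isolation than in any P5 isolation but under the 2-fold limit (log2 fold change -0.63, limma adjusted p = 0.00463). Eno1, also a plasminogen receptor, has near-identical gene copies, so its FPKM is uncertain and is not given.

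**Figure D4:**
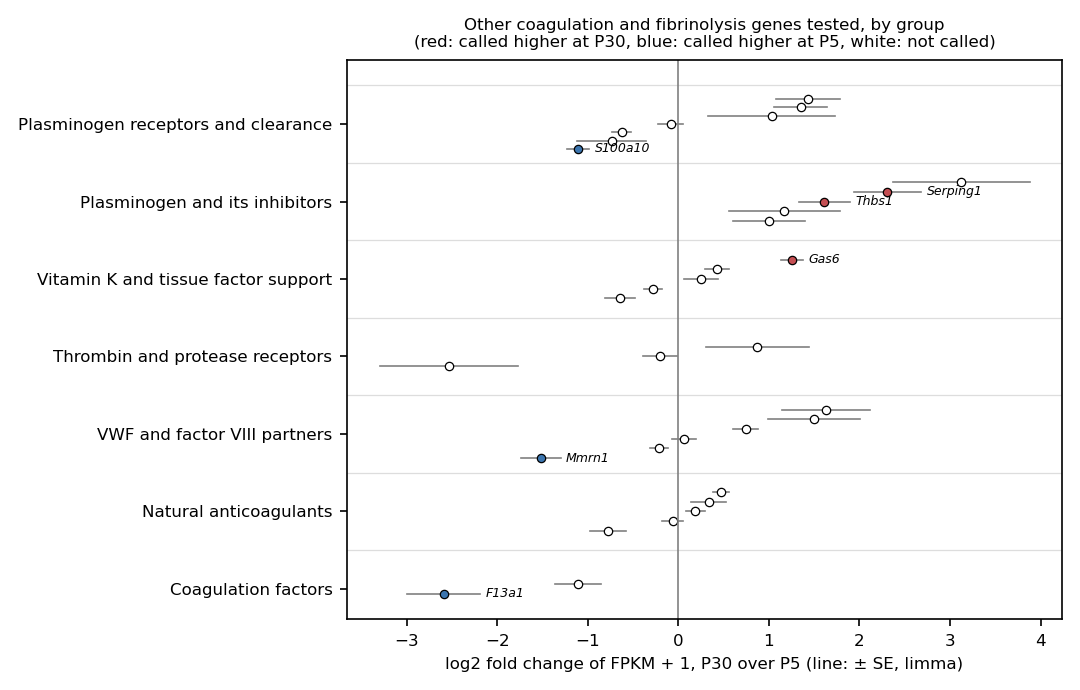
Log2 fold change of FPKM + 1, P30 over P5 (horizontal axis), of other clotting and fibrinolysis genes tested, grouped by role, with ± SE lines from limma and named filled points for genes called. Thbs1 lies at 1.61 and Serping1 at 2.31, and F13a1 lies lowest at -2.59.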

How the data were processed

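Choroid ECs were compared between P5 and P30, with 3 isolations per age grouped by sample title. Per the labels and the study's methods, TopHat was run against mm9, and the authors deposited FPKM values computed by Cufflinks with GC and upper quartile normalization (base calling with CASAVA 1.8.2, per the submitters' processing notes). Other versions and the annotation are not given in the sources used here. Depth is unknown. Ratios of FPKM values under 3 showed no steps of single reads (fullest bin of 0.05 in log2 ratio, 2.52% to 4.01% of genes per pair of samples). No 2 samples held identical values.

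Log2(FPKM + 1) was fitted with limma 3.58.1 in R 4.3.3 (lmFit, eBayes with a trend, no block), and p-values were adjusted over the 12481 genes tested. The fit was tested on simulated data. The study's count test could not be used on FPKM. Promoter windows were searched in Python 3.11.15. Gene positions come from the GENCODE annotation of mm9. P-values measure the spread between pooled isolations only. The call limits are those of the study. The members and gene lists were chosen with earlier results of these data known. Genes described besides the members were the other pathway genes called, the 2 with the highest mean FPKM in each pathway group, and the 3 nearest in pattern to each of the 2 called members with the largest change. Values of 2 listed genes are not reported here, though counts over lists include them. The listed symbol Plgrkt was matched through its older name. Alternatives were other pseudocounts, filters and scalings, no trend, the 2-fold limit on the limma coefficient, a replicate block, and each isolation left out.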

Additional observations from a re-analysis of the deposited data

How the results depend on the processing

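Of 134 values of the 9 genes under the alternatives, 121 stayed on the same side of the limits, 13 lost a call, and 0 gained a call or changed sign. Plat lost 7 calls, Plau 5 and Thbd 1. Without a trend Plat had an adjusted p of 0.0139. F3 was not tested at a minimum FPKM of 10. Leaving out each isolation moved the count of members higher at P5 between 0 and 1, of other pathway genes higher at P30 between 1 and 6, of all genes higher at P30 between 396 and 849, and of all genes higher at P5 between 291 and 754. With the replicate block, 0 members were higher at P5 (Plau, adjusted p = 0.0165 from limma) and 2 other pathway genes were higher at P30. Same-numbered isolations of different age had correlations of -0.09 to -0.03 in their deviations. These values gave no sign of pairing by number, but with 3 isolations per age they cannot exclude it. Kdr (-0.11) and Anxa5 (-0.11) changed sign with quantile normalization. Under that normalization Cdh5 gained a call as higher at P5 (log2 fold change -1.29, limma adjusted p = 2.3e-04). Entpd1 (0.03) changed sign without P30 replicate 3, within a range of -0.15 to 0.03 as each isolation was left out. Depth is unknown, so differences in genes near 0, F3 among them, could not be set against counting error.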
